A study of Mus musculus with 4 samples.

Results

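The genes described here are 9 genes through which cells sense leptin, insulin, insulin-like growth factor and adiponectin: Lepr, Insr, Igf1r, Irs1, Irs2, Irs4, Socs3, Adipor1 and Adipor2. They were taken by name, not by their values, and all 9 were among the 55357 genes of the deposited matrix. The libraries came from whole pituitaries of male mice that were 4 weeks old when 12 weeks of feeding began, and 2 libraries were made for the high-fat diet (HFD) and 2 for the normal diet (ND). Each library pooled 3 pituitaries, so animals within it cannot be told apart, and the glands were dissociated with enzymes before droplet-based capture of single cells. For every library the labels give, besides pituitary as tissue, the cell line Lbt2 and gonadotroph as cell type. The cells nevertheless held the hormone-producing, vascular, connective tissue and immune classes of a whole gland, and they were treated as whole pituitary.

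The barcodes of the matrix end in a number from 1 to 4, called sets 1 to 4 here, and no source used here ties a set to a library or a diet. The cells were therefore treated as 1 pooled sample, no diet comparison was made, and no test or p-value is given. A level below is CPM, the gene's UMIs (unique molecular identifiers, each counting a captured transcript) summed over a cell class and scaled to a common total of 1000000 UMIs. Its 95% Poisson interval covers counting error only. The 4 set values show the spread between sets, which are not replicates of a group. UMIs were counted near the 3′ end of transcripts without regard to length, so levels are compared between classes for the same gene and never between genes.

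After filtering, 36651 cells remained of 40406 barcodes, with 81621358 to 92665029 UMIs and 9929 to 10212 barcodes per set. Of these cells, 31676 were in a named class, 3318 (9.05%) were in clusters without a name and 1657 (4.52%) were set aside as mixed. The sub-clusters set aside carried markers of another class, few of their own, or very many UMIs with own markers under the class level. The 12 classes compared each had 20 or more cells per set. Their naming markers were at least 2-fold over all other kept cells for 5 of 7 in lactotroph-like cells, 6 of 7 in melanotroph-like cells, 5 of 6 in thyrotroph-like cells, 11 of 12 in stem or folliculostellate-like cells, and for every marker of the other classes. The 7 hormone genes took 44.3% of the UMIs of somatotroph-like cells and 2.87% of those of endothelial-like cells, which lowers all other levels in the first. 156 barcode sequences occurred in more than 1 set.

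As background, leptin is a fat-cell hormone whose receptor, Lepr, signals through the kinase JAK2 and the factor STAT3, and STAT3 switches on Socs3, an inhibitor of the same receptor. Insulin and insulin-like growth factor bind the related receptor tyrosine kinases Insr and Igf1r, which hand the signal to the insulin receptor substrates, docking proteins that recruit PI3 kinase and thereby AKT. Adipor1 and Adipor2 are the receptors of adiponectin, whose signalling includes AMP-activated kinase. In the pituitary, leptin and insulin are known to act on gonadotrophs and somatotrophs, and IGF1 is the classical feedback signal from growth hormone to somatotrophs.

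Promoter windows from RefSeq (GRCm38.p6) matched 8 of the 9 genes, in 10 windows over different starts. Insr had no entry. The 3 substrate genes are shown first because their windows share a short arrangement while their transcripts peaked in 3 different classes. All are read on the minus strand, upstream of the start of transcription, at chr1:82291522-82291566 for Irs1, chr8:11008941-11008985 for Irs2 and chrX:141725339-141725383 for Irs4. Capitals mark CACGTG, the letters of an E-box, and TGTTTTG, whose other strand reads CAAAACA, the core letters of the classical insulin response element.
Irs1: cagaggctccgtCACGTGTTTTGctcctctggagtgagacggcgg
Irs2: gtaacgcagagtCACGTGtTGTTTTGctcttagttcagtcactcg
Irs4: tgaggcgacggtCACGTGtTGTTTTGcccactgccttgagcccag
The E-box began 115 bases before the start in Irs1, 44 in Irs2 and 154 in Irs4. In Irs1 the motifs overlap by the letters TG. Irs2 and Irs4 shared an unbroken run of 17 bases across both motifs. Over the 250 bases upstream of 32851 windows of 27025 genes, searched on both strands, CACGTG occurred in 6.02% and TGTTTTG in 5.56%. The E-box followed within 10 bases by TGTTTTG, overlap allowed, occurred in 9 windows (0.0274%). The pair was searched after it had been noticed in the substrate windows, so its presence in them is a description. The other 6 windows included those of Fam214a and Klf11.

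Socs3 is shown for the STAT letters TTCNNNGAA, given in capitals at chr11:117969497-117969535 on the minus strand.
Socs3: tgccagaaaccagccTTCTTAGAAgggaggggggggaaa
The match began 154 bases before the start, and 7.02% of all windows held TTCNNNGAA, which reads alike on both strands. No match to it was found in the upstream windows of the other matched genes. A match is a string of letters and no measurement of binding.

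**Figure D1:**
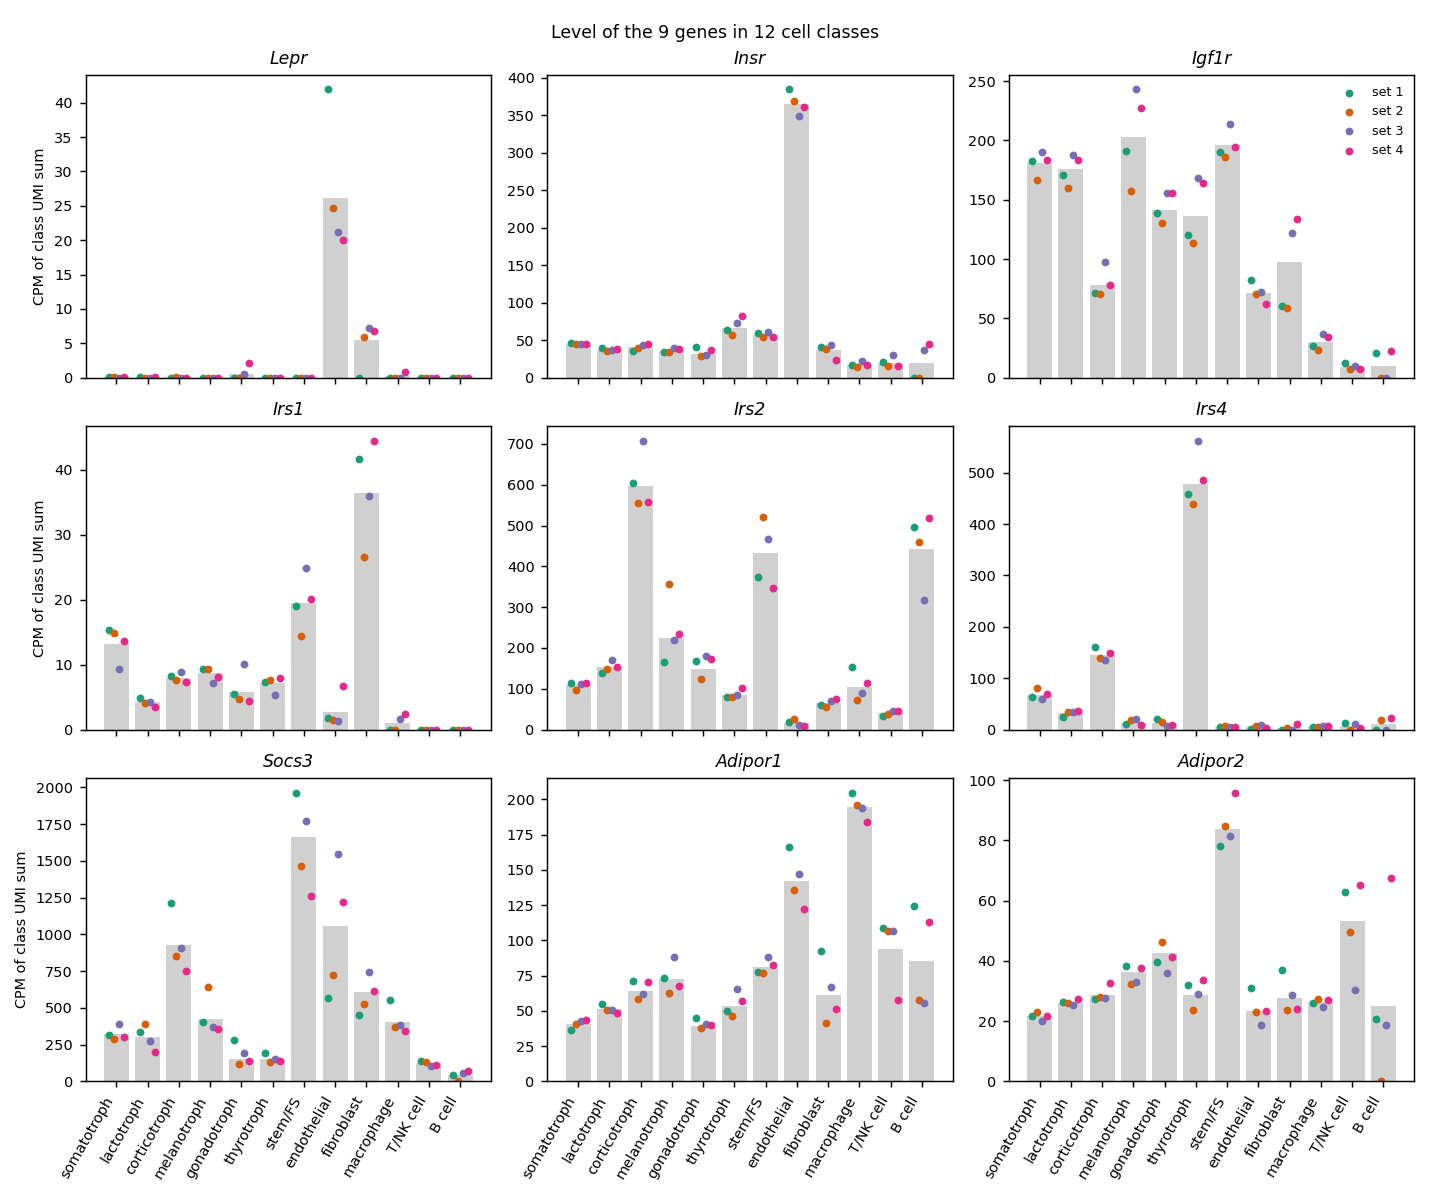
Each panel plots a gene's CPM (vertical axis, linear, own scale per panel) in 12 cell classes, with the pooled value as a grey bar and the 4 barcode sets as coloured points. Lepr and Insr stand highest in endothelial-like cells, Irs1 in fibroblast-like, Irs2 in corticotroph-like, Irs4 in thyrotroph-like, Socs3 and Adipor2 in stem or folliculostellate-like, and Adipor1 in macrophage or microglia-like cells, while Igf1r has no such class.

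Of the 9 genes, 8 had the same leading class in every set, beside 40.8% of the 15797 genes tested by that rule, and 3 of these (Lepr, Insr and Irs4) were also at least 2-fold over the next class, beside 21.8% of all genes. The count of 8 fell when all class sums were thinned to the smallest, as given at the end. The median fold of the leading over the next class was 1.57 for the 9 genes and 1.31 for all genes tested. The leading classes differed: endothelial-like and stem or folliculostellate-like cells each led for 2 genes, beside 5.37% and 6.02% of all genes tested. Fibroblast-like (4.63% of all genes), corticotroph-like (4.15%), thyrotroph-like (2.87%) and macrophage or microglia-like cells (4.22%) led for 1 each. No gene of the 9 led in somatotroph-like (0.665% of all genes) or gonadotroph-like cells (4.09%).

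Among the receptors, Lepr, the leptin receptor, was a scarce transcript, with 144 UMIs in all kept cells. Its level in endothelial-like cells was 42.0 CPM in set 1, 24.6 in set 2, 21.2 in set 3 and 20.1 in set 4, and 26.2 CPM pooled (20.3 to 33.2, 68 UMIs). Fibroblast-like cells came next at 5.54 CPM (2.23 to 11.4, 7 UMIs), with 0 in set 1, 5.91 in set 2, 7.20 in set 3 and 6.84 in set 4. Every endothelial-like value was above every fibroblast-like one, and the pooled ratio was 4.72. Of the UMIs of Lepr in kept cells, 47.2% were in endothelial-like cells, which made up 2.22% of the cells. Another 32.6% (47 UMIs) were in cells set aside as mixed, all from sub-clusters of the endothelial clusters.

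In hormone-producing cells Lepr was near the limit of counting. Gonadotroph-like cells, which release luteinizing and follicle-stimulating hormone, had 6 UMIs in 5 of 814 cells (0.573 CPM, 0.210 to 1.25), and 5 of the 6 UMIs were in set 4. Somatotroph-like cells, the growth hormone producers, had 11 UMIs in 13411 cells (0.0764 CPM, 0.0381 to 0.137). Lactotroph-like cells had 2 UMIs, and corticotroph-like and macrophage or microglia-like cells 1 each. None was found in 744 melanotroph-like, 677 thyrotroph-like or 1530 stem or folliculostellate-like cells, which allows a share of cells with a UMI of up to 0.403%, 0.443% and 0.196%. The 443 T or NK cell-like and 128 B cell-like cells also had none, with limits of 0.677% and 2.34%. The long, signalling form of the receptor and its short forms were counted as 1 gene.

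The share of endothelial-like cells with a Lepr UMI was 7.86% (6.11 to 9.93, exact Clopper-Pearson), at a median of 2481.5 UMIs per cell. In somatotroph-like cells, at a median of 10024 UMIs, it was 0.0820%. Thinned to 2000 UMIs each, 4.74% (3.09 to 6.92) of 527 endothelial-like cells kept a UMI, beside 0.0307% of 13013 somatotroph-like cells, and 287 shallower endothelial-like cells were left out. As a measure of RNA carried over between droplets, the endothelial markers were summed in the other classes. In fibroblast-like cells the 9 endothelial markers were at 2.36% of their summed level in endothelial-like cells and Lepr was at 21.2% of its own. In gonadotroph-like cells those markers were at 0.131% and Lepr at 2.19%.

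Insr, the insulin receptor, had its highest level in the same cells. Endothelial-like cells held 385 CPM in set 1, 370 in set 2, 350 in set 3 and 361 in set 4, and 365 CPM pooled (342 to 389, 948 UMIs). Thyrotroph-like cells, which release thyroid-stimulating hormone, followed with 63.2, 57.2, 73.4 and 82.0 CPM in sets 1 to 4 and 66.9 pooled. No other class reached the endothelial range in any set, and the pooled ratio was 5.45. Insr was nevertheless found in every class. It was 57.4 CPM in stem or folliculostellate-like, 45.1 in somatotroph-like, 40.8 in corticotroph-like, 37.6 in lactotroph-like, 37.2 in fibroblast-like, 35.9 in melanotroph-like and 32.3 in gonadotroph-like cells. It was lowest in macrophage or microglia-like cells at 17.4 CPM (88 UMIs). Neighbours in this order overlapped in their set values, except below endothelial-like cells and between stem or folliculostellate-like and somatotroph-like cells. The place of somatotroph-like cells depended on the hormone genes: without them in the library sizes Insr was 80.9 CPM there, above thyrotroph-like (78.4) and stem or folliculostellate-like cells (58.7), and 376 CPM in endothelial-like cells. In all, 52.3% of endothelial-like cells had an Insr UMI, and 46.9% (42.5 to 51.2) after thinning to 2000 UMIs, beside 13.0% of thyrotroph-like and 9.24% of somatotroph-like cells.

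Both receptors could be seen in the same endothelial-like cells. Of the 64 cells with a Lepr UMI, 53 (82.8%, 71.3 to 91.1) also had an Insr UMI, beside 373 of the 750 without Lepr (49.7%, 46.1 to 53.4). The cells with Lepr were deeper, at a median of 3793.5 against 2409.5 UMIs, and their Insr level was 442 against 354 CPM. Whether the depth accounts for the difference in share was not tested.

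The endothelial clusters split into 10 sub-clusters. The 5 kept ones had summed endothelial markers of 6606 to 15583 CPM. Among them the largest, of 376 cells, had Lepr at 28.2 and Insr at 399 CPM, and another of 192 cells had 16 Lepr UMIs and Insr at 545 CPM. A kept sub-cluster of 153 cells had Lepr at 21.3 and Insr at 280 CPM. The one with the fewest markers, of 68 cells, had 2 Lepr UMIs (15.7 CPM) and Insr at 173 CPM. The smallest, of 25 cells, had no Lepr UMI and Insr at 302 CPM. The 5 sub-clusters set aside had endothelial markers of 2726 to 7101 CPM, with Lepr between 3.96 and 10.9 CPM and Insr between 129 and 205 CPM. The kept sub-cluster of 68 cells lay within these ranges for the markers and Insr, so the split was not clean. A set-aside sub-cluster of 50 cells carried mural cell markers at 8381 CPM, beside 608 to 1223 CPM in those kept. With all 10 sub-clusters included, the class level was 13.4 CPM for Lepr and 221 CPM for Insr, and endothelial-like cells still led both genes in every set.

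**Figure D2:**
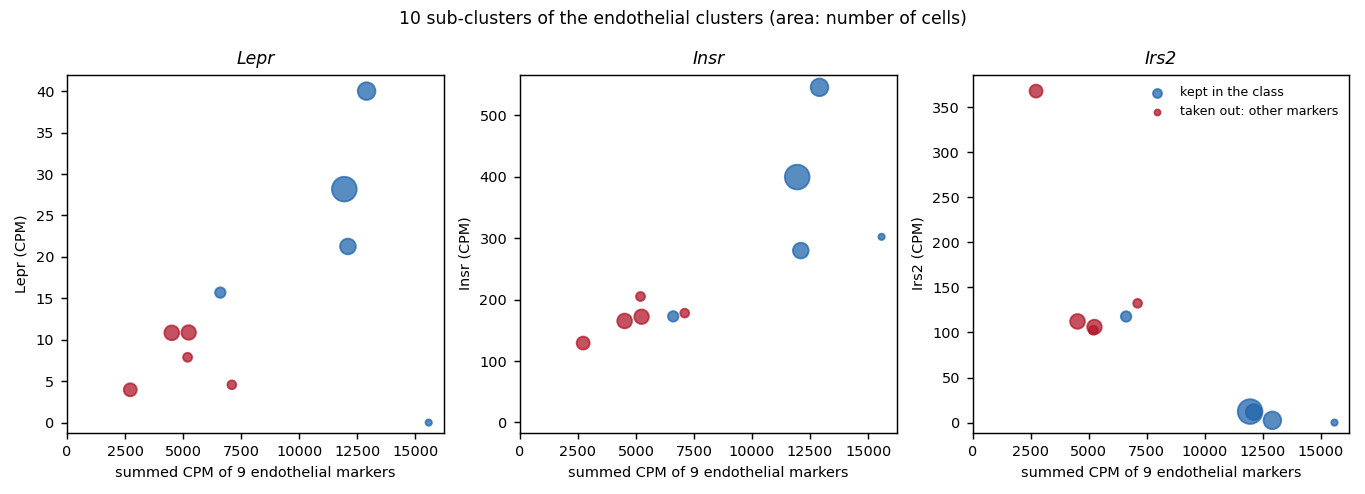
Each point is a sub-cluster of the endothelial clusters, with the summed CPM of 9 endothelial markers on the horizontal axis and the CPM of Lepr, Insr or Irs2 on the vertical axis (point area: number of cells). Blue sub-clusters were kept and red ones were set aside. Lepr and Insr are higher in most kept sub-clusters rich in endothelial markers, apart from 1 of 25 cells without a Lepr UMI. Irs2 is at or above 102 CPM in all those set aside. The kept sub-cluster with the fewest markers, of 68 cells, has Insr at 173 and Irs2 at 118 CPM.

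Igf1r, the receptor of insulin-like growth factor 1, was spread over the hormone-producing and stem or folliculostellate-like cells without a class that led in every set. Melanotroph-like cells, the intermediate lobe cells that make melanocyte-stimulating hormone, had 191, 157, 243 and 227 CPM in sets 1 to 4 and 203 pooled. Stem or folliculostellate-like cells had 190, 186, 214 and 194 CPM (196 pooled), somatotroph-like cells 183, 166, 190 and 183 CPM (181 pooled) and lactotroph-like cells 176 pooled. These 4 classes overlapped. Gonadotroph-like cells followed at 141, thyrotroph-like at 136, fibroblast-like at 97.3, corticotroph-like at 77.9 and endothelial-like cells at 71.6 CPM. The lowest levels were in macrophage or microglia-like cells at 30.1, B cell-like at 10.1 and T or NK cell-like cells at 9.39 CPM. When the 7 hormone genes were left out of the library sizes, somatotroph-like cells led in every set, at 325 CPM beside 257 in melanotroph-like cells.

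The proportion of Igf1r to Insr differed between endothelial-like and endocrine classes. Endothelial-like cells had 0.196 Igf1r UMIs per Insr UMI, with 0.213, 0.192, 0.206 and 0.171 in sets 1 to 4. Somatotroph-like cells had 4.01 (3.74 to 4.26 over the sets), melanotroph-like cells 5.65 (4.54 to 6.23) and corticotroph-like cells 1.91 (1.75 to 2.22). The endothelial value was below that of every other class in every set, among the 11 classes left without B cell-like cells. The low value depends on leaving out the endothelial sub-clusters set aside, which had Igf1r at 70.7 to 179 and Insr at 129 to 205 CPM. With them included it was no longer below that of T or NK cell-like cells (0.474, from 9 Igf1r UMIs). The ratio is read between classes only, since the capture of each transcript is unknown.

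**Figure D3:**
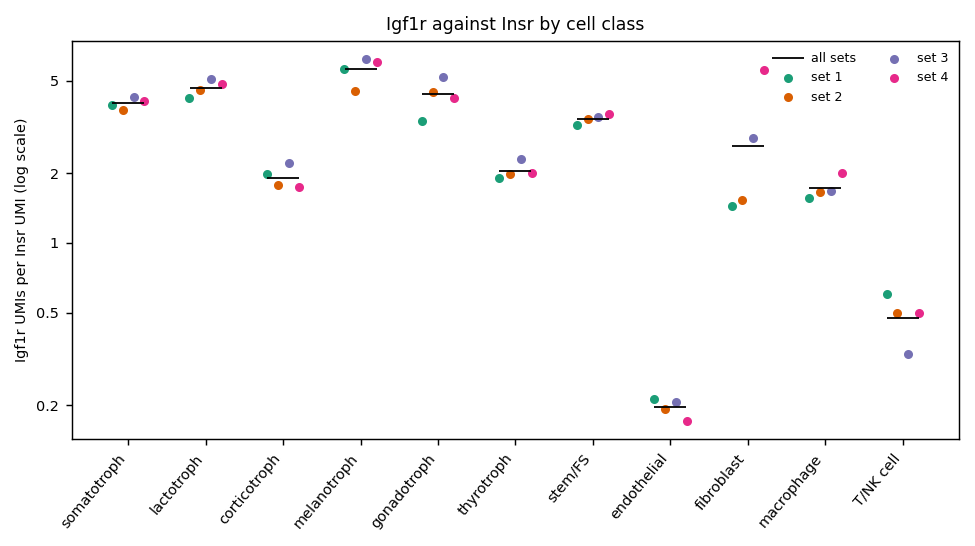
Igf1r UMIs per Insr UMI (log axis) in 11 cell classes, with the pooled ratio as a black dash and the 4 sets as coloured points. Endothelial-like cells, without the sub-clusters set aside, lie between 0.171 and 0.213, below the other classes drawn. B cell-like cells, with 2 and 4 UMIs, are not drawn.

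The 3 insulin receptor substrates, which dock onto both receptors, each led in a different class. Irs1 was highest in fibroblast-like cells, at 41.6, 26.6, 36.0 and 44.5 CPM in sets 1 to 4 and 36.4 pooled (26.7 to 48.6, 46 UMIs). Stem or folliculostellate-like cells had 19.1, 14.3, 24.8 and 20.1 CPM and 19.5 pooled, below the fibroblast-like cells in every set. Somatotroph-like cells, 36.6% of all kept cells, held 60.5% of the Irs1 UMIs at a level of 13.2 CPM, and at 23.7 CPM without the hormone genes they were above the stem or folliculostellate-like cells (19.9 CPM). Irs1 was 2.69 CPM in endothelial-like and 0.990 CPM in macrophage or microglia-like cells. No UMI was found in T or NK cell-like or B cell-like cells (Poisson interval up to 3.85 and 18.6 CPM).

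Irs2 was highest in corticotroph-like cells, the producers of adrenocorticotropic hormone, at 603, 554, 708 and 558 CPM in sets 1 to 4 and 597 pooled (587 to 608, 12237 UMIs). B cell-like cells followed at 443 CPM (355 to 546, 88 UMIs), and then stem or folliculostellate-like cells, whose sets 1 to 4 had 375, 520, 466 and 346 CPM (433 pooled). These 2 neighbours overlapped, and corticotroph-like cells were above both in every set. The corticotroph-like class was not uniform. Its kept sub-clusters ranged from 70.8 CPM in 1 of 399 cells to 1245 CPM in 1 of 640 cells, which held 5802 of the UMIs. Socs3 was 204 CPM in the former and 1309 CPM in the latter. The related melanotroph-like cells, which also make the Pomc hormone precursor, had 224 CPM, from 166 in set 1 to 357 in set 2. Lactotroph-like cells had 153, gonadotroph-like 149, somatotroph-like 109, macrophage or microglia-like 104 and thyrotroph-like cells 85.8 CPM. Without the hormone genes somatotroph-like cells had 195 CPM, above gonadotroph-like cells at 173.

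Endothelial-like cells, which led for Insr, were the lowest class for Irs2. Their level was 18.3, 24.6, 11.2 and 8.36 CPM in sets 1 to 4 and 15.4 pooled (40 UMIs), below every other of the 12 classes in every set. The sub-clusters of this class that were set aside had between 102 and 368 CPM, and the 5 kept ones between 0 and 118. With them included, the pooled level was 142 CPM, so the low value rests on leaving them out. Of endothelial-like cells, 4.30% had an Irs2 UMI, beside 76.7% of corticotroph-like cells. After thinning to 2000 UMIs the shares were 3.42% and 55.6%.

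Irs4, the X-linked substrate, was highest in thyrotroph-like cells at 458, 439, 562 and 486 CPM in sets 1 to 4 and 477 pooled (458 to 497, 2254 UMIs). The kept sub-clusters of this class ranged from 124 CPM in 1 of 48 cells (6 UMIs) to 753 CPM in 1 of 212 cells. Corticotroph-like cells had 161, 140, 135 and 149 CPM (145 pooled), somatotroph-like cells 64.3, 80.2, 59.3 and 68.3 CPM (68.0 pooled) and lactotroph-like cells 32.2 pooled. The first 4 classes did not overlap with their neighbours in this order. All others of the 12 classes compared were at or below 13.2 CPM pooled, with 5.22 in stem or folliculostellate-like and the lowest level, 3.17 (4 UMIs), in fibroblast-like cells. After thinning to 2000 UMIs, 56.5% (52.4 to 60.6) of thyrotroph-like cells kept an Irs4 UMI, beside 21.8% of corticotroph-like, 11.7% of somatotroph-like and 0.780% of stem or folliculostellate-like cells.

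Irs4 and Irs2 thus took different places in the endocrine classes. Thyrotroph-like cells had 5.57 Irs4 UMIs per Irs2 UMI, somatotroph-like cells 0.627, corticotroph-like cells 0.243, lactotroph-like cells 0.210, gonadotroph-like cells 0.0838 and stem or folliculostellate-like cells 0.0120. The promoter windows printed above, with the same 17 bases in Irs2 and Irs4, therefore belong to genes with unlike distributions. Over the 12 classes the correlation of log2(CPM + 1) was 0.24 for Irs2 with Irs4, 0.15 for Irs1 with Irs2 and 0.16 for Irs1 with Irs4. These values are a description over classes that share libraries. Fam214a, another gene with the motif pair but with more than 1 base between the motifs, was the gene of most like pattern to Irs2 (r = 0.92). It had 117 CPM in corticotroph-like and 115 CPM in stem or folliculostellate-like cells, and the former led in 2 of the 4 sets. The other measured genes with the pair had at most 1 base between the motifs, as in the substrate genes. Their r with Irs2 was 0.60 (Pyroxd1), 0.056 (Klf11), 0.048 (1700019P21Rik, 7 UMIs) and -0.14 (Pcbp1).

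**Figure D4:**
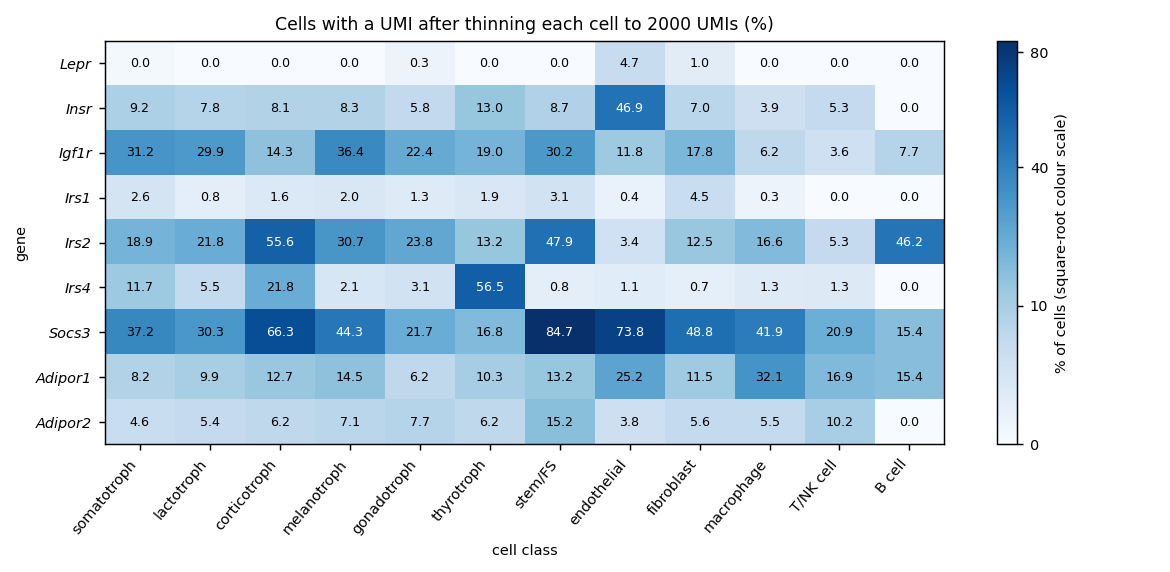
The share of cells with at least 1 UMI of each gene (rows) in each class (columns), after every cell was thinned to 2000 UMIs and shallower cells were left out; numbers are percent and the colour is on a square-root scale. Insr in endothelial-like cells (46.9%), Irs4 in thyrotroph-like cells (56.5%), Irs2 in corticotroph-like cells (55.6%) and Socs3 in stem or folliculostellate-like cells (84.7%) stand out, and the B cell-like column rests on 13 cells.

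Socs3, the inhibitor induced by STAT3, peaked in stem or folliculostellate-like cells, where sets 1 to 4 had 1966, 1465, 1769 and 1261 CPM and the pool 1662 (1638 to 1687, 17513 UMIs). Endothelial-like cells had 568, 721, 1548 and 1218 CPM (1059 pooled) and corticotroph-like cells 1215, 853, 908 and 752 CPM (925 pooled). The stem or folliculostellate-like cells were highest within every set, but their range overlapped that of endothelial-like cells. Fibroblast-like cells followed at 605, melanotroph-like at 424, macrophage or microglia-like at 405, somatotroph-like at 324 and lactotroph-like cells at 301 CPM. Gonadotroph-like cells had 152, thyrotroph-like 151, T or NK cell-like 122 and B cell-like cells 40.3 CPM. Without the hormone genes somatotroph-like cells had 582 CPM, above melanotroph-like cells at 537.

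Socs3 also moved with genes induced when tissue is dissociated. The 14 dissociation genes, among them Fos, Junb and Egr1, summed to 56181 CPM in stem or folliculostellate-like, 45120 in endothelial-like and 40853 in corticotroph-like cells, the same 3 classes that led for Socs3, and were lowest in T or NK cell-like cells, at 10098 CPM. Over the 12 classes the correlation of Socs3 with this sum was 0.90 (Pearson, log2(CPM + 1)) and 0.86 (Spearman). For Irs2 the values were 0.083 and 0.077. In endothelial-like cells the sum was 34010, 37307, 55309 and 50087 CPM in sets 1 to 4, so that sets 3 and 4 were high in both. The part of dissociation in the Socs3 levels was not tested.

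Within a class the same held for Irs2 as well. Lactotroph-like cells fell into a cluster of 4491 cells, with the dissociation genes at 9387 CPM, and another of 3815 cells at 33804 CPM. Irs2 was 55.5 CPM in the first (48.9 to 61.9 over the sets) and 242 in the other (222 to 259), and Socs3 was 95.5 (63.9 to 128) and 486 (314 to 633). The 3 somatotroph-like clusters, with dissociation genes at 6143, 14830 and 32367 CPM, had Irs2 at 53.4, 91.1 and 176 CPM and Socs3 at 92.9, 229 and 627 CPM. The set values of these clusters did not overlap for either gene. The clusters were drawn from other genes of the same cells, including the dissociation genes, so the contrast is a description.

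The other genes differed less between the same clusters, some of them without overlap of the sets. Insr was 40.1 and 35.4 CPM in the lactotroph-like clusters and 46.4, 44.6 and 44.4 in the somatotroph-like ones. Igf1r was 163 and 188, and 165, 177 and 198 CPM, and its values in the last somatotroph-like cluster were above those in the other somatotroph-like clusters in every set. Irs4 was 31.4 and 32.9, and 78.5, 63.9 and 62.6 CPM, while Irs1 was 3.12 and 5.15 CPM in the lactotroph-like clusters, without overlap of the sets, and lay between 12.7 and 13.7 CPM in the somatotroph-like ones. Adipor1 was 48.6 and 53.7, and 33.9, 38.2 and 49.7 CPM, in the same order as the dissociation genes. The shallow clusters were low in both genes: a stem or folliculostellate-like cluster of 366 cells at a median of 761.5 UMIs had Irs2 at 59.9 and Socs3 at 458 CPM, beside 447 and 1706 in the cluster of 1164 cells.

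**Figure D5:**
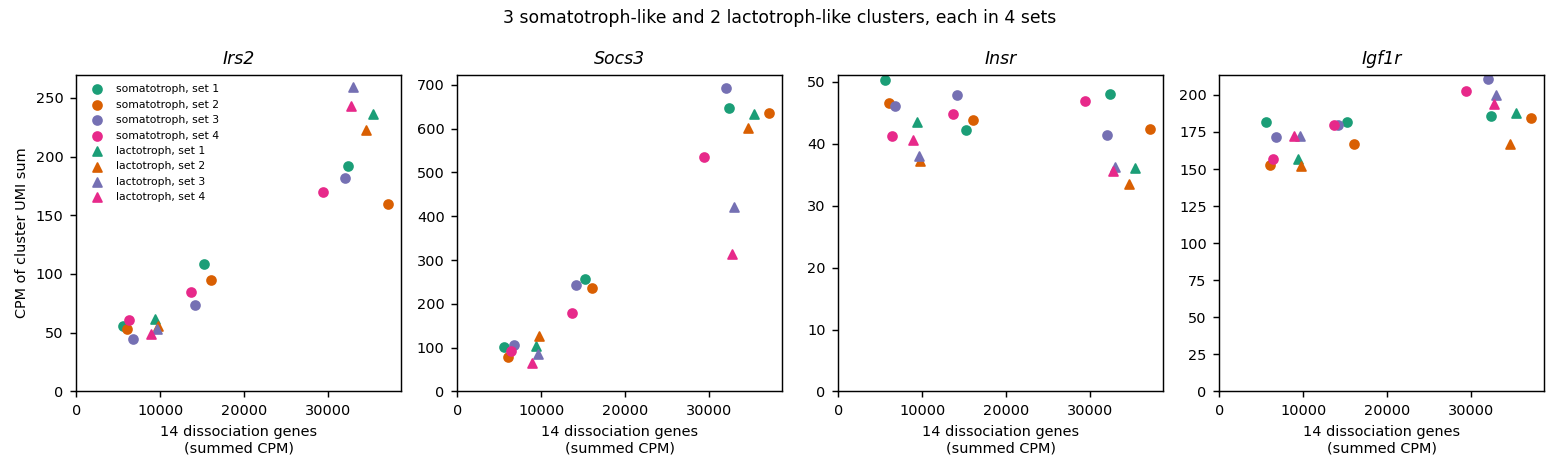
Each point is a cluster of somatotroph-like (circles, 3 clusters) or lactotroph-like cells (triangles, 2 clusters) in 1 of the 4 sets, with the summed level of 14 dissociation genes (CPM) on the horizontal axis and the CPM of Irs2, Socs3, Insr or Igf1r on the vertical axis. Irs2 and Socs3 rise with the sum within both classes, from about 53.4 to 176 and 92.9 to 627 CPM in the somatotroph-like clusters, while Igf1r goes from 165 to 198 CPM and Insr from 46.4 to 44.4 CPM.

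The adiponectin receptors led outside the endocrine cells. Adipor1 was highest in macrophage or microglia-like cells at 205, 196, 194 and 184 CPM in sets 1 to 4 and 194 pooled (182 to 207, 981 UMIs). Endothelial-like cells had 166, 136, 147 and 122 CPM (142 pooled), and these 2 classes stood apart from each other and from T or NK cell-like cells at 93.9 CPM. B cell-like cells (85.6 CPM, 17 UMIs) reached 124 CPM in set 1, above the lowest endothelial-like value. The endocrine classes lay between 39.4 CPM in gonadotroph-like and 72.5 CPM in melanotroph-like cells. Of the 3 macrophage or microglia-like clusters, 1 of 245 cells that carried the microglial receptor P2ry12 had Adipor1 at 228 CPM and Socs3 at 886 CPM, beside 189 and 295 CPM in the largest, of 915 cells. The set values of these clusters overlapped for Adipor1 (204 to 299 and 180 to 211 CPM) and did not for Socs3.

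Adipor2 peaked in stem or folliculostellate-like cells too, with 78.2, 84.6, 81.5 and 95.9 CPM in sets 1 to 4 and 83.7 pooled (78.3 to 89.4, 882 UMIs). T or NK cell-like cells had 53.2 CPM pooled (30.5 to 65.3 over the sets), gonadotroph-like cells 42.7 and melanotroph-like cells 36.2. Somatotroph-like cells were lowest at 21.5 CPM. Without the hormone genes in the library sizes they had 38.7 CPM, above 7 other classes, and endothelial-like cells were lowest at 24.2 CPM. Per Adipor2 UMI, macrophage or microglia-like cells had 7.38 Adipor1 UMIs and endothelial-like cells 6.07, beside 0.967 in stem or folliculostellate-like and 0.922 in gonadotroph-like cells.

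A pair of smaller classes was left out of the leading classes. The 214 pituicyte-like cells, the glia of the posterior lobe, of which 6 were in set 2, had Igf1r at 242 CPM (215 to 272), Insr at 68.7 CPM (54.6 to 85.4) and Irs2 at 236 CPM (209 to 265). Their Socs3 level was 973 CPM, Adipor2 was 80.6 CPM and Adipor1 130 CPM, and no Lepr UMI was found in them, which allows up to 1.40% of cells. The 80 proliferating cells carried cell cycle markers and had 24.1% of their UMIs from hormone genes. They had Igf1r at 164 CPM (141 to 190), Irs4 at 87.1 CPM (70.4 to 106) and no Lepr UMI (up to 4.51% of cells).

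The other genes of these pathways were taken from a list of 57, all measured, of which 48 had enough UMIs for the rule on leading classes. Of these, 16 (33.3%) led in a single class in every set, beside 40.8% of all genes, with a median fold over the next class of 1.26. Endothelial-like cells led for 4 of the 48 and stem or folliculostellate-like cells for 3, beside 5.37% and 6.02% of all genes. None of the ligands led by this rule. Lep, Ins1 and Ins2 had no UMI in the named classes and Adipoq had 1, while Igf1 was found at 149 CPM in fibroblast-like cells, where the sets ranged from 88.7 to 206, and at 112 CPM in macrophage or microglia-like cells (91.8 to 136).

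Of the 15 insulin branch kinases and regulators tested, only Akt1, a kinase downstream of PI3 kinase, led in endothelial-like cells, at 112 CPM beside 64.7 in the next class. By pooled level, Akt2 (17.3 CPM), Rptor (12.3 CPM), a partner of the kinase mTOR, and Tsc1 (18.5 CPM), an inhibitor of mTOR signalling, were instead lowest in endothelial-like cells. These values leave out the sub-clusters set aside. None of these genes led in a class in every set, and the share of all genes lowest in endothelial-like cells was not counted. Gab1, a docking protein like the substrates, led there at 117 beside 71.2 CPM. From the adiponectin branch, Prkab1, a subunit of AMP-activated kinase, led there at 76.6 beside 25.9 CPM. Gonadotroph-like cells led for both adaptors of the adiponectin receptors, with Appl1 at 270 beside 143 CPM and Appl2 at 105 beside 37.9 CPM. Fibroblast-like cells led for the adaptor Shc1, at 140 beside 47.5 CPM, and for Il6st, the shared receptor chain of interleukin-6 type cytokines that also signals to STAT3, at 343 beside 129 CPM.

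Stem or folliculostellate-like cells led for Ptprf, a receptor phosphatase that acts on the insulin receptor, with 303 beside 108 CPM. Among the PI3 kinase subunits, Pik3cb led in macrophage or microglia-like cells at 35.0 beside 16.5 CPM and Pik3r1 in T or NK cell-like cells at 487 beside 313 CPM. Of the 4 genes of the leptin branch, Jak2, Stat3, Stat5a and Stat5b, none led in 1 class in every set. Stat3 was 351 CPM in corticotroph-like and 347 in stem or folliculostellate-like cells, and Jak2 was 37.3 CPM in endothelial-like cells, where Lepr was highest.

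Genes with the most similar pattern over the 12 classes were found for the 8 genes with at least 100 UMIs there. Nearest to Insr were Rasip1 (r = 0.96), Mmrn2 and Sncg (both 0.94), and Rasip1 and Mmrn2 are known from endothelial cells. Amigo1 was nearest to Igf1r (0.96), Prkci to Irs1 (0.95), Fam122b to Irs4 (0.94), Nt5dc2 to Socs3 (0.91), Nfya to Adipor1 (0.93) and Dhrs1 to Adipor2 (0.93). Fosb, one of the dissociation genes, was among the 3 nearest to Socs3 (0.89). These correlations are a description of 12 classes that come from the same libraries.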

How the data were processed

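The authors deposited 1 matrix for the 4 libraries, which holds UMI counts of genes in barcodes and was written by Cell Ranger 8.0.1 per the file headers. Seurat is named without a role per the submitters' processing notes, with genome build and aligner not given in the sources used here. All members and lists, that is the 9 genes and the pathway, marker and dissociation lists, were chosen with earlier results of these data known. Barcodes under 500 UMIs, under 250 genes or over 25% mitochondrial UMIs, 567 in all, were removed. Doublets were scored with Scrublet in scanpy 1.11.5. Its automatic threshold marked between 0% and 9.28% of a set, so the 8% highest scores of each set were removed (3188 barcodes).

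Cells were clustered by the Leiden method (igraph 0.11.9, resolution 1.0) on 15 neighbours in 30 principal components of 2000 genes that varied within sets, the 9 genes and the pathway genes left out. They were named from 23 marker lists when at least 3 markers had a log2 fold of at least 0.5 and detection in 25% of cells. Each class was clustered again. Sub-clusters were set aside as mixed when they carried other markers or had own markers under 30% of the class level. They were also set aside when they had over 2 times the class's median UMIs together with own markers under the class level. Naming and set-aside limits were chosen after seeing the data, and the names describe clusters rebuilt here. A gene led in a class that had its highest CPM in every set, with at least 20 UMIs there. Pathway genes were named that led in 1 class with at least 100 UMIs, also without hormone genes, up to 10 by fold over the next class. The most similar genes were the 3 with the highest Pearson r of log2(CPM + 1). The leading rule was tested on simulated data. The planned edgeR comparison of diets was not run. Alternatives changed filters, doublets, resolution, class assignment, library size, weights, thinning and free RNA, and left out each set. Where symbols repeat, the identifier with most UMIs was used. No other gene on the same strand overlapped the last 1000 bases of the 9 genes in GENCODE vM21. Versions were pandas 2.3.3, scipy 1.17.1 and numpy 2.4.6 under Python 3.11.15.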

Additional observations from a re-analysis of the deposited data

Results flagged for a closer look

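In 3 of 63 combinations of gene and class, 1 set lay farther from the others than the 95% limit for 4 values allows, which chance gives in about 1 of 20. Socs3 in melanotroph-like cells was 639 CPM in set 2, beside 353 to 401 in the other sets. The 14 dissociation genes summed to 26603 CPM in the same cells of set 2, beside 12421 to 16340 in the others, and Irs2 was 357 CPM there, beside 166 to 235. Insr in somatotroph-like cells was 46.5 CPM in set 1, beside 44.5 to 44.8. Adipor2 in corticotroph-like cells was 32.8 CPM in set 4, beside 27.2 to 28.1.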

How the results depend on the processing

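No paired analysis was possible because no source used here ties the barcode sets to the libraries, so the planned diet comparison, its replicate block, DESeq2 and the left-out libraries were not run. The leading class stayed the same in 16 of 16 alternatives for each gene except Igf1r, for which it did in 13 of 16. Giving cells to classes by marker score put the endothelial-like level at 17.7 CPM for Lepr and 260 CPM for Insr. Keeping the sub-clusters with other markers, an alternative chosen after seeing the data, gave 13.4 and 221 CPM. With all class sums thinned to the smallest, 3 of the 9 genes and 6 pathway genes led in 1 class in every set, in place of 8 and 16. Far fewer UMIs were then counted. Leaving out each set in turn gave 8 to 9 genes, 19 to 24 pathway genes, 21.9 to 28.4 CPM for Lepr and 359 to 372 CPM for Insr. The share of all genes that meet the rule was not computed for these alternatives, so these counts have no background beside them. Of 144 recomputed levels of the leading classes, 102 lay inside the counting interval of the reported value and 3 moved by over 1.5 times, namely these values of Lepr and Insr with sub-clusters kept, and Irs1 at 20.8 CPM in fibroblast-like cells by marker score. With cells of at least 2000 UMIs only, too few B cell-like cells remained to compare. Depth limits Lepr most, where a few UMIs set each level outside endothelial-like cells.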
